A study of Mus musculus with 16 samples.

Results

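RNA and chromatin at 10 genes of the AP-1 and immediate early response were followed in mouse organ of Corti progenitors, the cells of the embryonic cochlea that give rise to hair cells and supporting cells. They were taken by symbol: Fos, Fosb and Fosl2, Jun, Junb and Jund, Atf3, Egr1, Ier2 and Dusp1. All 10 were found among the 48709 genes of the RNA files, and all 10 passed the filter on low counts that 15982 genes passed. Within 50 kb of the 10 genes lay 256 of 335380 regions of open chromatin by ATAC-seq, 115 of 267936 regions of H3K27ac and 51 of 74967 regions of Tead peaks. Peaks of an assay were merged over its libraries, so a region can come from a single library. H3K27ac is a histone mark of active promoters and enhancers, and Tead proteins are the DNA-binding partners of the coactivator Yap.

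Both stages came from mouse cochleae. The cells were sorted by flow cytometry as Sox2-GFP+ at stage E12.0 and as p27-GFP+ at stage E13.5 (E, embryonic day), so stage and reporter cannot be told apart. The labels name no strain, form of the reporter allele or treatment, and they do not tie a replicate to a litter or an animal; p-values therefore reflect the spread among libraries, which may be technical. RNA-seq had 2 libraries per stage, ATAC-seq 3 per stage, H3K27ac CUT&RUN 2 per stage and Tead CUT&RUN 2 at E12.0 only. The dissociation and sorting times of each library are not given in the sources used here.

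AP-1 is a dimer of basic leucine zipper proteins in which a Jun protein pairs with a Fos protein, with another Jun protein or with an Atf protein, and it binds the sequence TGACTCA or its relatives. Immediate early genes such as Fos, Egr1 and Ier2 need no new protein synthesis to be switched on. Growth factors, stress and the handling of tissue are known to raise their RNA within minutes through MAP kinases, serum response factor and CREB-type factors, and phosphatases such as Dusp1 then damp the signal.

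The promoters of Jun, Fos and Dusp1 are printed because each lies inside an ATAC region held by all 6 ATAC libraries, and because these genes gave 3 different outcomes in RNA. Jun was called higher in every setting tried, and Fos did not pass the test on all libraries. Dusp1 had a log2 fold change above 0 in every setting but was called higher only in some. Each is the 250 bases before the start site in the RefSeq promoter table (GRCm38.p6), 5′ to 3′ on the gene's strand. They are chr4:95052223-95052472 (minus strand) for Jun, chr12:85473640-85473889 (plus strand) for Fos and chr17:26508473-26508722 (minus strand) for Dusp1. Capitals mark matches to the searched motifs TGACATCA, TGACGT and TGACGTCA.
Jun: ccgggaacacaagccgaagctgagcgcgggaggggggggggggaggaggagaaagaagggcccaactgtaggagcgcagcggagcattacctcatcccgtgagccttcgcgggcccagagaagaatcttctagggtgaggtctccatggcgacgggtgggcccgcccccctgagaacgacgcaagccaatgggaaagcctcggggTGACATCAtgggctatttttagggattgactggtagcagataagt
Fos: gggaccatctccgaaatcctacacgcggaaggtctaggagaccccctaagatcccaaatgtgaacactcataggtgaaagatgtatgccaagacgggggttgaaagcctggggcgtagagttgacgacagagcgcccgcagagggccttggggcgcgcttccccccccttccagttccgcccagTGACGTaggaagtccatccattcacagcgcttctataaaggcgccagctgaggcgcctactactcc
Dusp1: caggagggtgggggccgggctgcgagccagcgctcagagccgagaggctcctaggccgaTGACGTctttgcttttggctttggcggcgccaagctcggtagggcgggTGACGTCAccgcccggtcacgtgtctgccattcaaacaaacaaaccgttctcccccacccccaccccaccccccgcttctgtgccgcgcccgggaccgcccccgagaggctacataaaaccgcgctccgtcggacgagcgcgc

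The motif TGACATCA, the Jun-type AP-1 and ATF site, matched Jun at -45 to -38 from the start site, and it was present in 3.02% of the 27025 promoters of the same length. Fos held TGACGT, the short form of the cyclic AMP response element, at -66 to -61, and a TATAAA box at -33 to -28 that is not capitalised. TGACGT was present in 6.56% of promoters and TATAAA in 12.97%. Dusp1 held the full element TGACGTCA at -143 to -136, present in 1.62% of promoters and containing TGACGT on both strands, and a further TGACGT at -191 to -186.

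The promoter table held 8 of the 10 genes, with Egr1 and Ier2 named only. In the other promoters, Atf3 matched TGACGT at -8 to -3 on the opposite strand. Fosb and Fosl2 matched GCGNGGGCG, the Egr-type site, at -50 to -42 and at -79 to -71, a motif of 4.65% of promoters. Junb and Jund held none of the motifs searched. The canonical AP-1 site TGACTCA (4.43% of promoters), the Tead site GGAATG (12.6%) and the serum response element (the CArG box, 1.399%) were in none of the 8 windows on either strand. These are letter matches in the windows and were not tested as binding sites.

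The RNA libraries held 9412326 and 9810603 expected counts at E12.0, followed by 17057751 and 19570946 at E13.5, so that 10 counts corresponded to between 0.424 and 1.38 CPM, the read count per library size scaled by TMM. The mitochondrial rRNA mt-Rnr2 took 16.99% and 13.2% of counts at E12.0, followed by 0.295% and 0.180% at E13.5. Its part in the stage differences was not tested beyond 1 refit: with mitochondrial genes left out, 3 of the 10 genes were again higher and 1 lower. All 12 prosensory markers passed the filter, with summed levels of 2641 and 2695 CPM at E12.0, followed by 5077 and 5270 at E13.5. No endothelial, erythroid or immune marker passed. Of 8 neuronal markers 6 passed, and all 8 summed to 45.3 and 57.1 CPM at E12.0 and to 25.3 and 23.7 CPM at E13.5. Of 6 glial markers 4 passed, and all 6 summed to 1794 and 2103 CPM at E12.0 and to 645 and 680 CPM at E13.5. Most of this was Erbb3, which fell, whereas Sox10 rose from 49.5 and 51.8 CPM to 181 and 202 CPM. Foxd3 was near 0. Of 9 mesenchymal markers 5 passed, and all 9 summed to 1275 and 1142 CPM at E12.0 and to 367 and 466 CPM at E13.5. Most of this was Lum, and Pou3f4, Tbx18, Twist1 and Prrx1 were near 0. Of 6 melanocyte markers 2 passed (Dct and Mitf), and all 6 summed to 4.26 and 3.30 CPM at E12.0 and to 4.67 and 27.9 CPM at E13.5. Dct was at 0 and 0 CPM at E12.0 and at 2.05 and 16.5 CPM at E13.5. Mitf was at 3.99 and 3.18 CPM and then at 1.91 and 0.678 CPM. The part of these markers in the stage differences was not tested. In bulk samples, a change in the share of cells and a change in RNA per cell cannot be told apart.

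By stage, 3 of the 10 genes rose at E13.5 (Jun, Ier2 and Dusp1), 1 fell (Fosb) and 6 did not pass the test (Fos, Egr1, Junb, Jund, Atf3 and Fosl2). The test was edgeR's quasi-likelihood test with Benjamini-Hochberg adjustment over all genes tested, at 0.05. Of all genes tested 45.9% passed, 22.4% as higher and 23.5% as lower, so 4 of 10 is near the background. The median log2 fold change of the 10 genes was 0.66, beside 0.05 for all genes tested, and it depended on E13.5 replicate 2: it was 0.08 without that library and 0.998 without E13.5 replicate 1.

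Jun (chr4:95049036-95052222) encodes the AP-1 subunit with the strongest transactivation of the Jun proteins. Its RNA was at 121 and 125 CPM at E12.0 and at 545 and 576 CPM at E13.5. The libraries of a stage lay close together and the stages did not overlap. The log2 fold change was 2.19 ± 0.24 (SE), a 4.55-fold rise, with an adjusted p of 8.61e-05 in edgeR's quasi-likelihood test. Every one of the 11 alternatives kept this call, with log2 fold changes between 2.14 and 3.02.

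Ier2 (chr8:84661331-84662852), a short-lived nuclear protein of the immediate early response, was at 118 and 111 CPM at E12.0 and at 277 and 462 CPM at E13.5. Both E13.5 libraries lay above both E12.0 libraries, with E13.5 replicate 2 the highest. It rose by a log2 fold change of 1.69 ± 0.29 (SE), with an adjusted p of 0.00107 by edgeR, and the call held under all 11 alternatives.

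Dusp1 (chr17:26505591-26508472), the phosphatase that inactivates MAP kinases, was at 50.9 and 49.0 CPM at E12.0 and at 72.0 and 122 CPM at E13.5. The stages did not overlap, and again E13.5 replicate 2 was the highest. The log2 fold change was 0.96 ± 0.30 (SE), with an adjusted p of 0.0233 by edgeR. The call was lost without E12.0 replicate 1 (adjusted p 0.0903), without E12.0 replicate 2 (0.0967) and without E13.5 replicate 2 (0.275, with a log2 fold change of 0.52).

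Fosb (chr7:19302696-19310118), a Fos protein whose splice form ΔFosB accumulates with repeated stimulation, moved the other way. It was at 50.6 and 23.2 CPM at E12.0 and at 10.1 and 6.10 CPM at E13.5, without overlap, although the E12.0 libraries differed widely. Its log2 fold change was -2.19 ± 0.46 (SE), with an adjusted p of 0.00322 by edgeR. On TPM, which is scaled per transcript length, it was not called by limma, with -1.13 and an adjusted p of 0.0665 on log2(TPM + 1).

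Fos (chr12:85473890-85477274), the founding partner of Jun, was at 81.8 and 87.2 CPM at E12.0 and at 37.6 and 111 CPM at E13.5. The E13.5 libraries lay on either side of the E12.0 pair. Its log2 fold change was -0.18 ± 0.41 (SE), with an adjusted p of 0.740 by edgeR. Its sign turned on 1 library: without E13.5 replicate 1 it was 0.40 (adjusted p 0.364) and without E13.5 replicate 2 it was -1.17 (adjusted p 0.0182, edgeR). It was also above 0 on log2(TPM + 1), at 0.50.

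Egr1 (chr18:34861207-34864956), a zinc finger factor, was at 191 and 185 CPM at E12.0 and at 115 and 482 CPM at E13.5. As with Fos, the E12.0 libraries were close and the E13.5 libraries fell below and above them. Its fitted difference was a log2 fold change of 0.67 ± 0.50 (SE), with an adjusted p of 0.293 by edgeR. It was 1.37 without E13.5 replicate 1 (adjusted p 0.00137, edgeR) and -0.71 without E13.5 replicate 2 (adjusted p 0.101).

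Junb (chr8:84976909-84978748), a Jun protein that can restrain Jun, was at 84.3 and 50.4 CPM at E12.0 and at 70.8 and 179 CPM at E13.5, so the stages overlapped. The log2 fold change was 0.89 ± 0.41 (SE), with an adjusted p of 0.0994 by edgeR. Without E13.5 replicate 1 it was 1.42 (adjusted p 0.00272) and without E13.5 replicate 2 it was 0.07 (adjusted p 0.901, edgeR). Jund (chr8:70697739-70700616), the broadly expressed Jun protein, was at 215 and 178 CPM at E12.0 and at 210 and 320 CPM at E13.5, with 1 library overlapping, a log2 fold change of 0.43 ± 0.27 (SE) and an adjusted p of 0.223 by edgeR. On log2(TPM + 1), limma called both: 1.64 with an adjusted p of 0.00680 for Junb and 1.26 with 0.00355 for Jund.

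Atf3 (chr1:191170296-191183333), a stress-induced bZIP factor, and Fosl2 (chr5:32136472-32157840), a Fos-related protein, were low. Atf3 had 10 and 25 counts at E12.0, followed by 75 and 77 at E13.5, or 1.38, 2.94, 3.57 and 3.26 CPM. Fosl2 had 36, 34, 48 and 29 counts, or 4.95 and 4.002 CPM at E12.0, followed by 2.29 and 1.23 at E13.5. Their log2 fold changes were 0.65 ± 0.72 and -1.35 ± 0.71 (SE), with adjusted p of 0.484 and 0.143 by edgeR, not called under any of the 11 alternatives. CPM ranges did not overlap between stages for 6 of the 10 genes (Fosb, Fosl2, Jun, Atf3, Ier2 and Dusp1), beside 75.4% of all genes tested, so non-overlap of 2 and 2 libraries was the usual case.

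**Figure D1:**
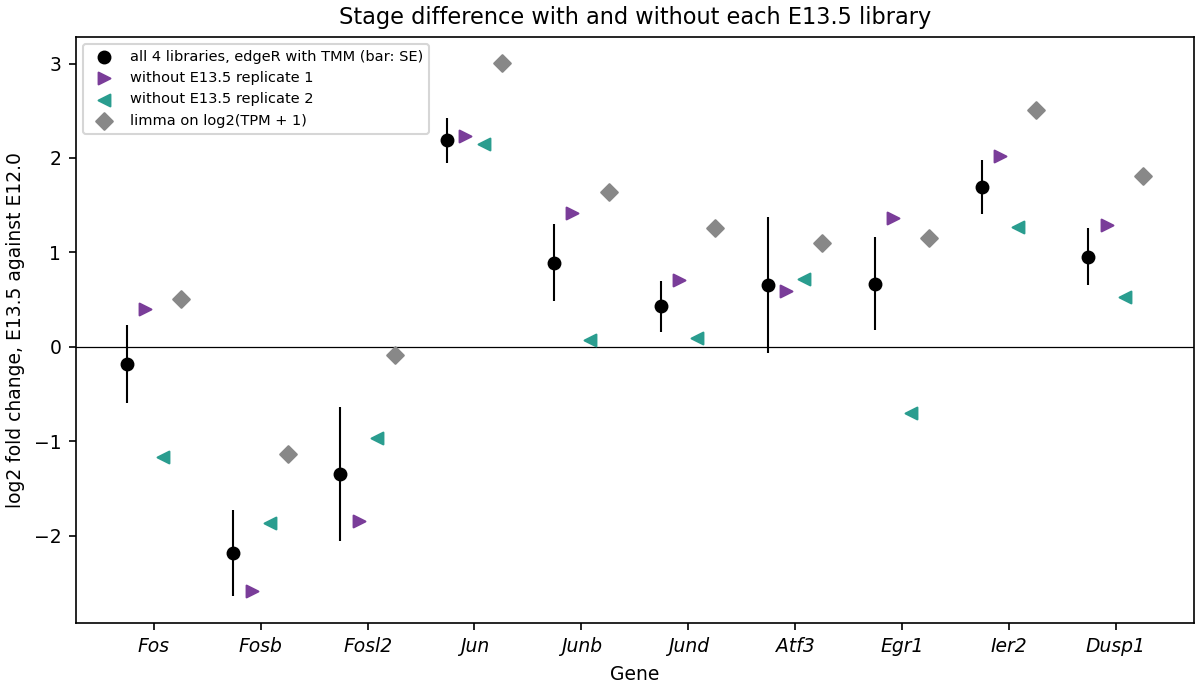
Log2 fold change at E13.5 against E12.0 for the 10 genes, as fitted by edgeR on all 4 libraries (black, bar: SE), without each E13.5 library, and by limma on log2(TPM + 1). Jun lies at 2.14 or above in every fit shown, while Egr1 runs from -0.71 without E13.5 replicate 2 to 1.37 without E13.5 replicate 1, and Fos from -1.17 to 0.50.

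The scale of the whole data set moved with the unit. The median log2 fold change of all genes was 0.76 on log2(TPM + 1) against 0.05 with TMM, and the split was 6821 higher and 2101 lower by limma in place of 3579 and 3761 by edgeR. Relative to the median of 0.76, Jun was 2.25 higher on the log2(TPM + 1) scale, Ier2 1.75, Dusp1 1.06, Junb 0.88 and Jund 0.50, while Fos was at -0.25 and Fosb at -1.89. Jun was first and Fosb last of the 10 genes on both scales.

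Per transcript length, Jund had the highest RNA level of the 10 genes at E12.0, at 156 and 164 TPM. Ier2 followed at 94.6 and 112 TPM and Egr1 at 70.8 and 87.8. Fos (46.1 and 62.3), Jun (44.1 and 57.4) and Junb (56.0 and 42.3) overlapped and could not be ordered. Dusp1 was at 30.6 and 38.2 TPM and Fosb at 16.3 and 9.15, while Atf3 (0.863 and 2.24) and Fosl2 (0.943 and 0.899) overlapped at the bottom.

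At E13.5, Ier2 was highest at 461 and 752 TPM. Jund (315 and 469) overlapped it, and Jun (404 and 416) lay within the range of Jund. Egr1 (87.0 and 356), Junb (97.9 and 241), Dusp1 (95.7 and 157) and Fos (45.0 and 129) had wide ranges that overlapped in a chain. Fosb (6.65 and 3.77) overlapped Atf3 (4.62 and 3.94), and Fosl2 (1.07 and 0.569) was lowest.

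**Figure D2:**
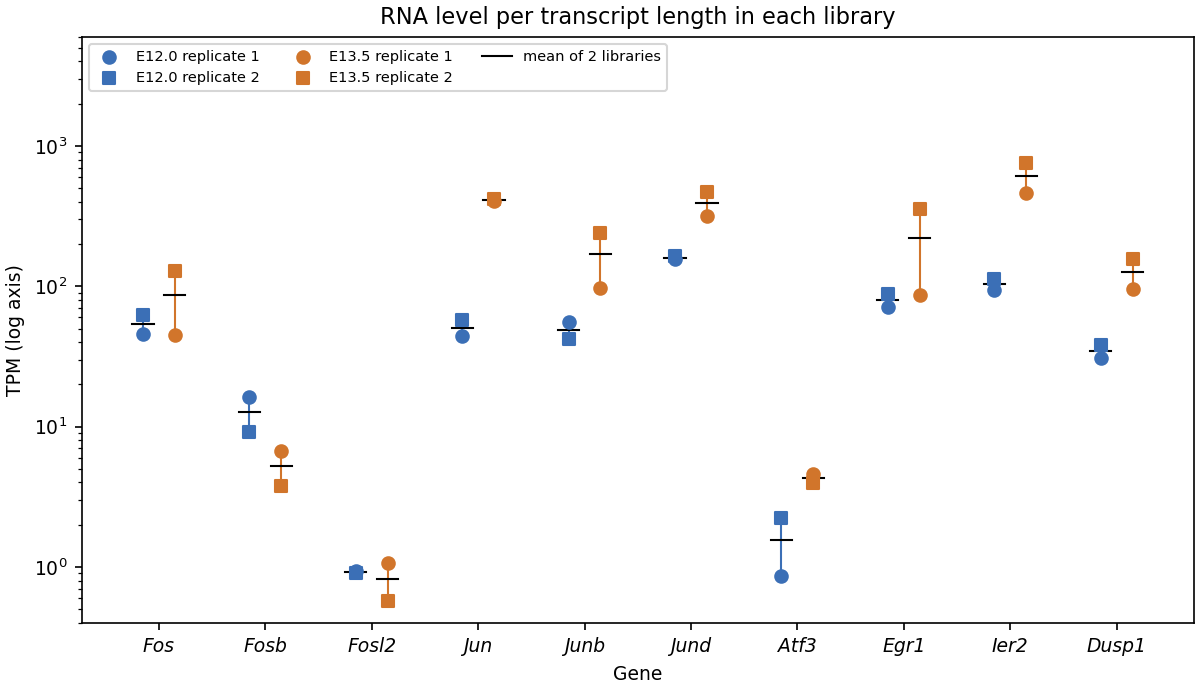
TPM (log axis) of each gene in each RNA library, with E12.0 in blue and E13.5 in orange, circles for replicate 1, squares for replicate 2, and a black line at the mean of the 2 libraries. The E13.5 libraries of Jun coincide near 410 TPM, whereas those of Egr1 lie at 87.0 and 356 TPM.

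Ratios within a library do not depend on how libraries are scaled. Jun made up 17.2% and 21.8% of the summed TPM of Jun, Junb and Jund at E12.0, followed by 49.5% and 37.0% at E13.5, without overlap. Jund made up 60.9% and 62.1% at E12.0, followed by 38.5% and 41.6% at E13.5. Junb, at 21.9%, 16.1%, 11.99% and 21.4%, overlapped between stages. The Jun family thus had Jund as its most abundant RNA in both E12.0 libraries, and Jun or Jund in the E13.5 libraries.

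Among Fos, Fosb, Fosl1 and Fosl2, Fos took 72.7% and 85.4% of TPM at E12.0, followed by 83.7% and 96.3% at E13.5. The summed TPM of the Jun family was 4.05 and 3.61 times that of the Fos family at E12.0, followed by 15.2 and 8.43 times at E13.5, so every E13.5 ratio was above every E12.0 ratio. With 2 libraries per stage an exact permutation test cannot go below p = 0.333, and none is given for these shares.

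The 2 E13.5 libraries differed at these genes. The CPM ratio of replicate 2 over replicate 1 was 4.18 for Egr1, 2.95 for Fos, 2.53 for Junb, 1.69 for Dusp1, 1.67 for Ier2 and 1.53 for Jund. It was 1.06 for Jun, 0.91 for Atf3, 0.60 for Fosb and 0.54 for Fosl2. A limit of 1.5, chosen after these values were seen, was reached by 6 of the 10 genes, beside 9.49% of the 10050 genes with a mean of at least 10 CPM. At E12.0 only Atf3 reached it, at 2.14, beside 11.9% of those genes. In the other direction, Fosb and Fosl2 were at least 1.5-fold lower in E13.5 replicate 2, beside 9.22% of those genes, and Fosb and Junb in E12.0 replicate 2, beside 12.6%. Jun and Atf3 passed the limit in neither direction at E13.5. Atf3 and Fosl2 lay below the mean of 10 CPM required of the 10050 genes, with 10 to 77 counts per library.

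Among 31 other immediate early genes that were tested, 7 were at least 1.5-fold higher in E13.5 replicate 2 and 7 at least 1.5-fold lower, with a median ratio of 1.19. These genes were not held to a mean of 10 CPM, and some, such as Gadd45b and Nr4a3, lay far below it. Arc was at 30.3, Egr2 at 2.45 and Klf4 at 2.34, whereas Gadd45b was at 0.36 and Sik1 at 0.43. Gadd45b had 15 counts in replicate 1 and 6 in replicate 2, and Nr4a3 had 35 and 2. At E12.0, 6 of the 31 genes were at least 1.5-fold higher in replicate 2 and 3 at least 1.5-fold lower. Of 12 heat shock genes, 0 were higher and 1 was lower by the limit at E13.5, with a median ratio of 0.96. The summed CPM of the melanocyte markers given above was also highest in E13.5 replicate 2, whereas Mitf was lowest there. The part of these markers in the difference was not tested.

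**Figure D3:**
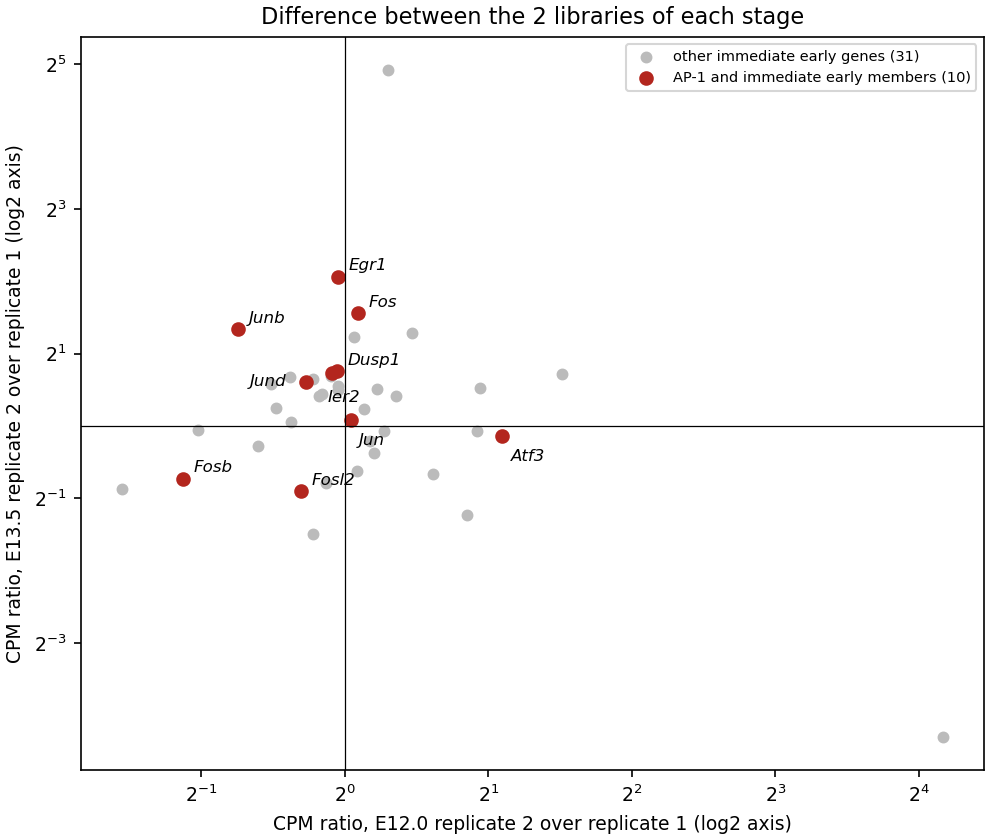
CPM ratio of replicate 2 over replicate 1 at E12.0 (x axis) and at E13.5 (y axis), both on log2 axes, for the 10 genes (red) and 31 other immediate early genes (grey). Egr1, Fos and Junb lie between 2.53 and 4.18 on the y axis and Jun at 1.06, with Arc the grey point at 30.3 and Nr4a3, with 35 and 2 counts, the lowest grey point.

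The other AP-1 and bZIP genes were described from a list of 22, of which 16 were tested. Of these 5 rose and 7 fell (31.25% and 43.75%), beside 22.4% higher and 23.5% lower of all genes tested. Their median log2 fold change was -0.57, beside 0.05 for all genes. The repressor Bach2 fell from 120 and 130 CPM to 16.2 and 10.6 (log2 fold change -3.22), and Atf4, the factor of the integrated stress response, from 885 and 483 CPM to 94.0 and 93.5 (-2.87). Jdp2, a Jun dimerization partner, rose from 1.10 and 3.18 CPM to 13.2 and 14.2 (2.66). Bach2 was not called by limma on log2(TPM + 1), at -0.79 with an adjusted p of 0.117.

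Of the 31 other immediate early genes tested, 3 rose and 6 fell (9.7% and 19.4%), beside 22.4% and 23.5% of all genes tested. The median log2 fold change was -0.04. Rhob, a small GTPase, fell from 141 and 98.3 CPM to 8.19 and 12.2 (-3.55). The mRNA decay factor Zfp36l2 fell from 139 and 161 CPM to 15.3 and 21.8 (-3.02), and Csrnp1 from 13.3 and 12.5 CPM to 1.33 and 2.16 (-2.88). Plk2, a polo-like kinase, rose from 14.3 and 15.7 CPM to 79.97 and 94.2 (2.54).

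Upstream regulators came next. Of 6 genes of serum response factor and its cofactors 3 fell and the other 3 did not pass the test, beside 23.5% lower of all genes tested. The median log2 fold change was -0.54. Srf itself fell from 220 and 362 CPM to 35.2 and 31.3 (log2 fold change -3.13). Elk4 (-1.37) and Mrtfb (-0.90) fell as well, but neither was called by limma on log2(TPM + 1), where Mrtfb was at 0.33. Mrtfb was also not called without E12.0 replicate 1 (adjusted p 0.0831, edgeR) or without E13.5 replicate 2 (0.102).

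Of 12 MAP kinase genes tested 1 rose and 3 fell (8.3% and 25%), beside 22.4% and 23.5% of all genes tested. Map2k7, which activates the Jun kinases, rose from 22.3 and 31.8 CPM to 108 and 120 (2.07). Mapk3 (-1.20) and Mapk8 (-0.98), which encode ERK1 and JNK1, fell with TMM but were at -0.08 and -0.01 on log2(TPM + 1) and were not called there. Mapk3 was also not called without E12.0 replicate 1, with an adjusted p of 0.478 by edgeR, nor without E13.5 replicate 1 (0.0711), and for Mapk8 these values were 0.0984 with E12.0 replicate 2 left out and 0.101 with E13.5 replicate 2 left out.

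Of 14 dual-specificity phosphatases and ERK feedback genes 2 rose and 3 fell (14.3% and 21.4%), beside 22.4% and 23.5% of all genes tested. Dusp5, which inactivates nuclear ERK, fell from 147 and 192 CPM to 12.6 and 18.1 (-3.46), and Spred2 from 58.0 and 73.5 CPM to 14.2 and 9.41 (-2.48). Dusp4 rose from 6.46 and 15.9 CPM to 34.8 and 44.9 (1.83), and Dusp7 from 10.2 and 22.1 to 49.7 and 44.2 (1.53). Dusp1 thus rose beside Dusp4 and Dusp7 while Dusp5 fell.

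Of 12 heat shock genes tested 4 rose and 2 fell (33.3% and 16.7%), beside 22.4% and 23.5% of all genes tested. The median log2 fold change was 0.30. Hsf1, the heat shock factor, rose from 5.50 and 5.30 CPM to 69.1 and 53.4 (3.50), and Hsp90aa1 fell from 605 and 665 CPM to 196 and 212 (-1.64). The co-chaperone Bag3 rose from 2.89 and 2.00 CPM to 11.5 and 8.14 (2.01), a call lost without E12.0 replicate 2 (adjusted p 0.0678) and without E13.5 replicate 1 (0.0871, edgeR). Hspa1a, the inducible Hsp70, was at 0 and 0.118 CPM at E12.0 and at 1.0002 and 0.975 CPM at E13.5. It passed with edgeR on all libraries but not by DESeq2 (adjusted p 0.188), nor with any 1 library left out (0.145 to 0.327, edgeR).

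By smallest distance of log2(CPM + 1), centred over the 4 libraries, the genes most like Jun among 10050 were Capn5, Mlycd and Gm21811, at distances between 0.0680 and 0.0873. The genes most like Fosb were Gm43792, Airn and Washc3, at 0.243 to 0.295.

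Chromatin at the 10 genes was open at both stages. An ATAC region over the start site, or else overlapping the gene span, had a peak for all 10 genes in every E13.5 library and in 1 of 3 E12.0 libraries, and for 9 in the other E12.0 libraries, with Fosl2 the exception. Of the 256 ATAC regions near the genes, 70 (27.3%) were held by all 6 libraries, beside 10.1% of all regions in the genome. The latter share includes regions at any distance from a gene. One of the 10 genes was the nearest gene for 30 of the 70, and the rest lay nearest to other genes. All 10 genes had at least 1 such region, beside 82.2% of all protein-coding genes. All 10 also had at least 2, beside 72.8% of all protein-coding genes, whose median was 3. Fosl2 had 2, Jun and Atf3 had 3 each, and the other genes had 5 to 15. All folds given here are the authors' peak-caller values, for the largest peak of a library in a region, and a region was held by a library when a deposited peak overlapped it by 1 base or more.

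Of the 256 regions, 11 (4.3%) had a peak in each E13.5 list and in none of the E12.0 lists, beside 6.6% of all regions. The reverse pattern had 0 of 256, beside 0.054%, and 1.22% of all protein-coding genes had such a region. The 11 lay near 7 of the 10 genes, where 54.1% of all protein-coding genes had one. The E13.5 lists held 208061 to 226496 peaks and the E12.0 lists 112621 to 143817, and the part of list size in these counts was not tested. The count was 25 without E12.0 replicate 2 and 18 without E13.5 replicate 2.

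None of the 11 lay near Jun, Fos or Fosb, and the Jun region over the start site was open in every library. Of the 11, Ier2 had 3, Fosl2 and Jund 2 each, and Junb, Atf3, Egr1 and Dusp1 1 each. In 5 cases one of the 10 genes was the nearest gene. Chosen after their values were seen, a region inside Fosl2 at chr5:32142889-32143599 had folds between 3.54 and 6.57, and a region 2325 bases upstream of Atf3 at chr1:191185658-191185993 had folds between 1.74 and 2.30.

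**Figure D4:**
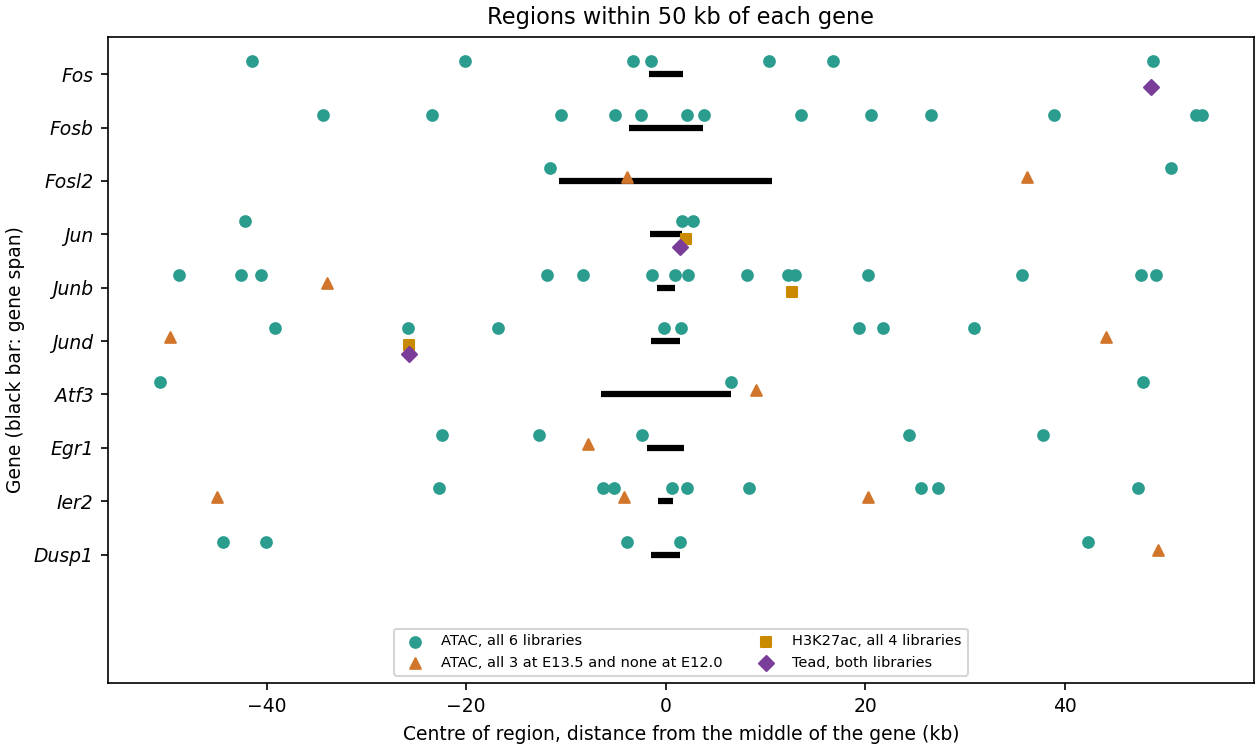
Regions within 50 kb of each gene, by distance of the region's centre from the middle of the gene (kb), with the gene span as a black bar. Circles mark the 70 ATAC regions held by all 6 libraries, triangles the 11 held at E13.5 alone, squares the 3 H3K27ac regions in all 4 libraries and diamonds the 3 Tead regions in both libraries.

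Jun had peaks of every assay at its start. The region chr4:95051395-95053043 had ATAC folds of 9.40, 11.7 and 6.59 at E12.0, followed by 6.75, 6.93 and 5.81 at E13.5. H3K27ac folds were 5.15 and 3.70 at E12.0, followed by 5.16 and 4.05 at E13.5, and Tead folds were 2.87 and 2.62, the second from a peak beside the region that both Tead libraries held. Among the 8 genes with a start site in the promoter table, Jun alone had ATAC, H3K27ac and Tead peaks there in all their libraries, as had 1.12% of 17492 start sites. Taken singly, ATAC peaks were at 57.8% of start sites in all libraries, H3K27ac peaks at 8.59% and Tead peaks at 2.01%. Jun RNA rose from 123 to 561 CPM on average while its ATAC and H3K27ac peaks were present at both stages.

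The ATAC regions of Fos, Fosb, Jund, Egr1 and Dusp1 were each held by all 6 ATAC libraries. H3K27ac peaks of 3 of 4 libraries and a Tead peak of 1 of 2 overlapped each region. Not all of these lay over the start itself. No Tead peak lay over the Fos or Dusp1 start site, and no ATAC or H3K27ac peak over the tabulated Jund start site. No H3K27ac or Tead region lay inside the Egr1 gene span. At the Fos start, chr12:85473359-85474797, the ATAC folds ran from 6.62 to 8.55. Its H3K27ac folds were 4.33 in E12.0 replicate 1, with no peak in E12.0 replicate 2, and 10 and 3.89 at E13.5. For peaks overlapping the Egr1 ATAC region the H3K27ac folds were 10.3 and 3.77 at E12.0 and 12.5 in E13.5 replicate 1. E13.5 replicate 2 had no peak there. The replicate 2 lists of H3K27ac held few strong peaks, as given below.

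Ier2, which rose in RNA, had ATAC folds of 4.45, 5.10 and 5.51 at E12.0, followed by 6.47, 6.09 and 6.26 at E13.5, and the H3K27ac peaks overlapping that ATAC region came from the E12.0 libraries (2.31 and 2.97). Beside it, the H3K27ac region chr8:84655268-84657247, 4084 bases from Ier2, had peaks in E12.0 replicate 1 (3.03) and in both E13.5 libraries (3.91 and 3.89), and the region chr8:84663924-84664608, 1072 bases away, in E12.0 replicate 1 (2.49) and E13.5 replicate 1 (3.81). Atf3 had ATAC peaks in all 6 libraries and 1 H3K27ac peak, in E13.5 replicate 1. Junb had ATAC peaks in all 6 libraries with folds from 3.34 to 5.35 and no H3K27ac or Tead peak at its start. Over the Fosl2 start, ATAC peaks were in 4 of 6 libraries with folds up to 3.09. A separate ATAC region ending 307 bases before that start (chr5:32134959-32136165) was held by all 6 libraries, with folds from 4.33 to 7.02.

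**Figure D5:**
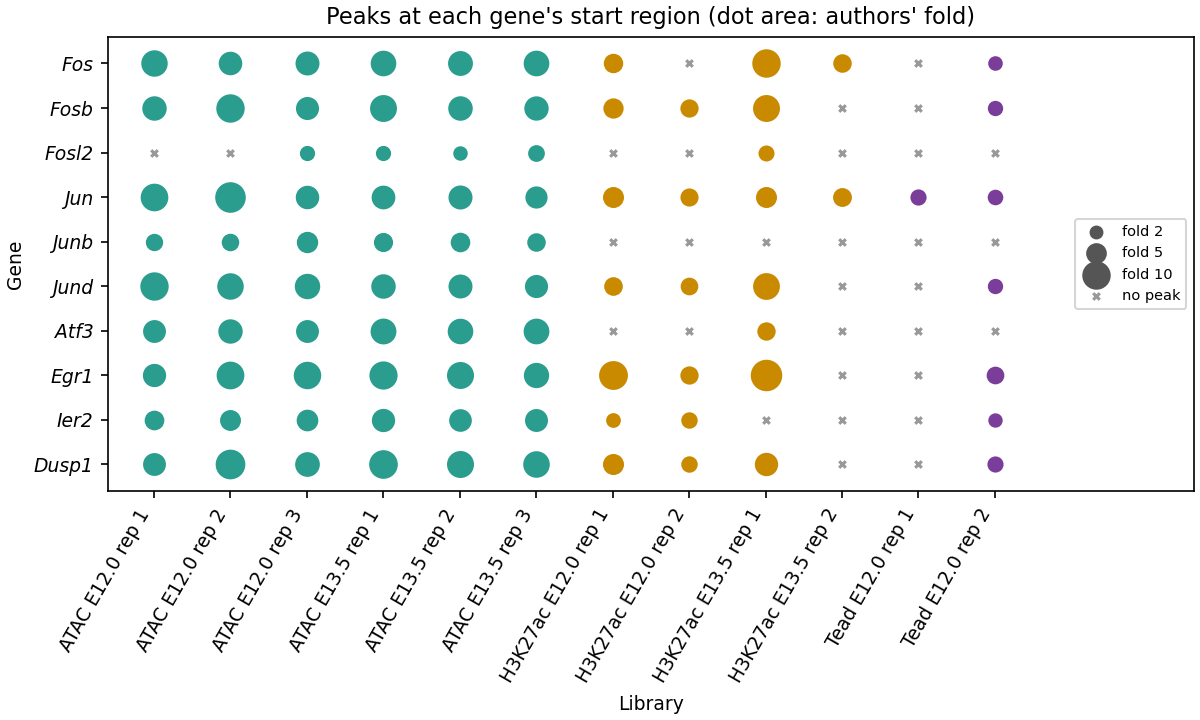
Peaks overlapping the ATAC region at the start of each gene in each library, with dot area by the authors' fold and a cross for no peak (for Jund, Egr1 and Ier2 the region overlaps the gene span and no tabulated start site). A dot for H3K27ac or Tead need not lie over the start site itself. Jun has a dot in all 12 libraries, and H3K27ac E13.5 replicate 2 has a dot only at Fos and Jun.

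Away from the start sites of the 10 genes, several of the regions held by the most libraries were nearest to another gene. Whether such a region lies over the start site of that other gene was not examined, so it is not assigned to the 10 genes. The region chr8:70672845-70673884, 23855 bases from Jund and nearest to Lsm4, had peaks in all 12 libraries, with ATAC folds between 11.1 and 19.2. A region 46228 bases downstream of Fos (chr12:85523502-85525318) had peaks in 11 libraries, with ATAC folds from 3.34 to 8.36, and a region 17875 bases upstream of Fos (chr12:85454913-85456015) in 10, with folds from 10.3 to 16.7. The Fosb region nearest to Ercc1 (chr7:19344903-19345816), 34785 bases away, also had 10, with folds from 8.14 to 17.5. The Junb region nearest to Hook2 (chr8:84990326-84991325) had 11, whereas the Junb start had 6. For Atf3, a region 40575 bases upstream (chr1:191223908-191225302) had peaks in 9 libraries and its start in 7.

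H3K27ac near the 10 genes differed between libraries of the same stage. The E13.5 libraries held 73 and 18 peaks near the genes and the E12.0 libraries 64 and 38. The whole lists held 118017 and 76022, and 64887 and 92839. With a -log10 q of at least 3 the lists held 47678 and 4883 peaks at E13.5, and 33235 and 4998 at E12.0. Most peaks of both replicate 2 lists were thus weak, and the part of this in the differences was not tested. Of the 115 regions, 3 were held by all 4 libraries, beside 1.97% of all regions in the genome, 1 by both E13.5 libraries alone (beside 1.4%) and 1 by both E12.0 libraries alone (beside 0.877%). The 3 shared regions were at the Jun start (chr4:95051419-95053878), 11010 bases from Junb and nearest to Hook2 (chr8:84989758-84991126), and 23648 bases from Jund and nearest to Lsm4 (chr8:70672825-70674091). Without E13.5 replicate 2, 16 regions were held by all and 35 at E13.5 alone; without E12.0 replicate 2 these were 6 and 1, with 22 at E12.0 alone. E13.5-only regions were 9 without E13.5 replicate 1 and 4 without E12.0 replicate 1, and E12.0-only regions 14 and 15.

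Tead was profiled at E12.0 only, and 3 of 51 regions near the genes were held by both libraries, beside 2.12% of all regions. They were over the Jun start (chr4:95051499-95052542, folds 2.43 to 2.87), 46511 bases downstream of Fos (chr12:85523785-85524616, folds 2.38 to 2.72) and 23574 bases from Jund (chr8:70672648-70674165, folds 2.72 to 3.85). Jund was not the nearest gene to the last of these. All 3 overlapped ATAC regions held by all 3 E12.0 libraries and H3K27ac regions held by both E12.0 libraries, beside 57.9% and 53.1% of such Tead regions in the genome. The Tead lists held 18250 and 58410 peaks, with 7 and 47 regions near the genes, and the replicates used different library kits; the part of list size and kit was not tested. With a -log10 q of at least 3 in each list, no region was left in both.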

How the data were processed

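RNA was measured in 4 libraries and chromatin in 12 from sorted mouse cochlear progenitors. The labels' protocols state polyA enrichment with a TruSeq kit for RNA, Tn5 for ATAC-seq and CUT&RUN with H3K27ac or pan-Tead antibodies; Tead replicate 1 and E12.0 H3K27ac replicate 1 used a KAPA kit and the other CUT&RUN libraries an Accel kit. Per the submitters' processing notes, STAR, UMI-tools and MACS2 were used, with GRCm38 and mm10 as builds and no versions; which tool counted reads per gene is not stated there.

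The RNA values deposited by the authors are expected counts per gene with gene and effective lengths per the file headers, and they were rounded before testing. Peak lists give the authors' fold (a ratio), -log10 p and q values and a score per peak, deposited per library. Genes were tested with edgeR 4.0.16 (quasi-likelihood, filterByExpr, TMM, Benjamini-Hochberg at 0.05) on 15982 of 48709 genes; 48349 IDs had a symbol. The SE of a log2 fold change is its size divided by the square root of F. TPM was computed from expected counts and effective lengths, and limma 3.58.1 tested log2(TPM + 1) and log2(TPM + 0.1). DESeq2 1.42.0, RLE, no filter, mitochondrial genes left out, the replicate block and leaving out each library were further alternatives. For peaks, intervals of an assay were merged over libraries, and a minimum -log10 q of 3, 50% cover, a 10 kb window and the nearest gene only were tried. Gene spans came from RefSeq (GRCm38.p6; 21887 protein-coding genes). Tests were checked on simulated data.

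The 10 genes and all lists were chosen with earlier results of these data known. All 10 genes are named, up to 4 genes per list by largest log2 fold change among those passing (some genes that this rule names are not reported here), the 3 genes most like the highest and the lowest of the 10 by fold change, and up to 3 regions a gene; the immediate early genes compared between replicates and the regions behind counts of 5 or fewer were named after their values were seen. Coordinates are those of mm10, which is GRCm38. Depth is given in the results: 10 counts in a library are 0.424 to 1.38 CPM. R 4.3.3, Python 3.11.15 and pandas 2.3.3 were used.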

Additional observations from a re-analysis of the deposited data

How the results depend on the processing

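No paired analysis rests on the replicate numbers, which are used here only to name libraries. Deviations of same-numbered RNA libraries correlated at -0.0049 over 2 pairs. With so few pairs this value cannot show whether same-numbered libraries were prepared together. With the replicate number as a block, the calls were 3 higher and 1 lower among the 10 genes and 3440 higher and 3698 lower among all genes.

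Among the 10 genes, Jun, Ier2, Atf3 and Fosl2 kept their direction and their side of the threshold under all 11 alternatives. The count higher was 5 without the filter on low counts and 5 by limma on log2(TPM + 1) and on log2(TPM + 0.1), and the count lower was 0 and 0 on the TPM scales; leaving out 1 library gave 2 to 5 higher and 1 to 2 lower. For all genes, limma gave 6821 higher and 2101 lower with a pseudocount of 1 and 6524 and 2005 with 0.1, and leaving out 1 library gave 2341 to 2751 higher (2341 without E12.0 replicate 1) and 2910 to 3299 lower. Fos was at 0.50 on log2(TPM + 1), 0.51 on log2(TPM + 0.1) and 0.40 without E13.5 replicate 1 (-1.17 without E13.5 replicate 2), and Egr1 at -0.71 without E13.5 replicate 2 (1.37 without E13.5 replicate 1), each reversal against the other sign in the full test; the cause was not tested.

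For ATAC, regions held by all libraries were 39 with 50% cover, 28 within 10 kb and 30 with the nearest gene only; E13.5-only regions were 4 within 10 kb and 5 with the nearest gene only. Leaving out 1 library gave 11 to 25 E13.5-only, 0 to 1 E12.0-only and 70 to 86 shared regions. For H3K27ac, E13.5-only regions were 0 with a -log10 q of at least 3 and 0 within 10 kb. E12.0-only regions were 0 with that q, with 50% cover, within 10 kb and with the nearest gene only. Shared regions were 1 with that q, 0 with 50% cover, 1 within 10 kb and 1 with the nearest gene only. Leaving out 1 library gave 1 to 35 E13.5-only, 1 to 22 E12.0-only and 3 to 16 shared H3K27ac regions. For Tead, shared regions were 0 with that q, 0 with 50% cover and 1 within 10 kb, and 7 and 47 with either library alone. Fewer regions or libraries entered by construction; other causes were not tested. Depth limits Atf3 and Fosl2, which had 10 to 77 counts per library.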

Other observations

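From the other immediate early genes, 6 are given as examples, all chosen after their values were seen. Arc, Egr4 and Gem were highest in E13.5 replicate 2. Nr4a3, Sik1 and Homer1 were lower there than in E13.5 replicate 1. Further genes of the list, such as Egr2 in the first way and Nfkbia in the second, did the same. Arc was at 2.20 and 2.71 CPM at E12.0 and at 0.619 and 18.7 CPM at E13.5. Egr4 was at 0.413 and 0.471 CPM at E12.0 and at 0.476 and 5.85 CPM at E13.5, and Gem, a small GTPase, at 0.138 and 0.353 CPM and then at 0.191 and 3.90 CPM. Egr4 and Gem did not pass the filter on low counts and were not tested. Nr4a3 had 2 and 42 counts at E12.0 and 35 and 2 counts at E13.5. Sik1 was at 5.23 and 9.42 CPM and then at 10.05 and 4.28 CPM, and Homer1 at 39.5 and 36.02 CPM and then at 37.4 and 21.7 CPM. Npas4 had 0 counts in all 4 libraries, where 3 counts over a stage are 0.190 CPM at E12.0 and 0.0673 CPM at E13.5 (counting error only).

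Junb differed within E12.0 as well, at 84.3 CPM in replicate 1 and 50.4 in replicate 2, as did Fosb at 50.6 and 23.2 CPM, with replicate 1 the higher in both genes.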
